A study of Drosophila melanogaster with 12 samples.

Results

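The testis meiotic arrest complex (tMAC) genes aly, comr, topi, tomb, achi, vis and wuc and their partner gene kumgang (kmg) are 8 of the 17558 features counted in gonads of Drosophila melanogaster. They were chosen by name, as genes of the complex and kmg, although earlier results of these data were known at that time. RNA-seq gene counts were available from testes and ovaries of flies labelled Tdrd5l mutant and of a control line labelled cas9 iso, with 3 libraries called biological replicates in each of the 4 groups. Males were 1 to 2 days old and females 0 to 1 day old, all raised at 25 °C. Ribosomal RNA was removed from the testis samples, whereas poly(A) RNA was taken from the ovaries, so tissue, sex, age and RNA selection cannot be told apart. Tdrd5l encodes a Tudor domain protein, and the labels describe neither its lesion nor the origin of the control line.

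Primary spermatocytes switch on a large set of genes for the meiotic divisions and for building sperm. In the testis this step depends on tMAC, a male germline version of the dREAM (Myb-MuvB) complex that is present in most fly cells. Males without tMAC function arrest with primary spermatocytes. The subunit genes divide by role. Aly is the testis form of the LIN-9 subunit, Tomb carries the CXC domain of the LIN-54 type and Wuc resembles LIN-52. Comr is a nuclear protein, Topi is a zinc finger protein, and Achi and Vis are homeodomain proteins of the TGIF type. Kumgang, a zinc finger protein of spermatocytes, works with the chromatin remodeller Mi-2 and keeps tMAC from acting at promoters of genes that are normally silent in this lineage.

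Gene counts totalled 1390699 to 2880119 per testis library and 772292 to 1647933 per ovary library. The members sit near the low end of what this depth resolves, with 2 to 130 counts in any testis and 0 to 19 in any ovary library. Genes with no exon base opposite another gene held 27.4% to 43.9% of the gene counts of testis libraries, and 8.90% to 32.5% of those of ovary libraries. Mutant testis replicate 3 had the lowest testis share at 27.4%, against 40.0% and 43.9% in the other mutant testis libraries. For mutant ovary replicate 2 this share was 32.5%, while the other 5 ovary libraries had 8.90% to 17.6%. Both libraries stand apart from their groups, and values without them are given for some of the results that rest on them. Genes received 3.33% to 5.02% of the uniquely aligned records of a testis library and 1.96% to 3.29% of those of an ovary library. The kit does not mark strand, the sources used here do not give the strand setting of the counting, and reads of a gene and of an overlapping opposite gene may not be separable. The antisense RNA gene asRNA:CR45601 had 4328 counts in control ovaries, where the yolk protein gene Yp1 opposite it had 45. Of the Yp1 exon bases 54.3% lie opposite another gene, and the others do not. Levels below are therefore those of the assigned counts, and how well they track total RNA of a gene was not tested. A count of 0 need not mean that a gene has no RNA. Testis germ cell markers (betaTub85D, Mst87F, dj and can) summed to 4111 to 8981 CPM (the counts of a gene scaled to a common total of gene counts per library) in testis and 0 to 4.38 CPM in ovary libraries. The 4 ovary markers were the eggshell genes Vm26Aa, Vm26Ab and Cp36 and the yolk protein gene Yp1. They summed to 0 to 2.88 CPM in testis and 14.2 to 348 CPM in ovary libraries. The sum of 348 CPM was in mutant ovary replicate 2, and the other ovary libraries had 14.2 to 39.2 CPM. Vm26Aa and Vm26Ab were each at 0 in all 3 control ovary libraries and in 2 of the 3 mutant ovary libraries. Tdrd5l itself did not separate the genotypes, with 326, 269 and 414 CPM in mutant and 390, 324 and 307 CPM in control testis libraries 1, 2 and 3 (log2 fold change 0.01, SE 0.34, edgeR adjusted p = 0.998), so its level gives no check on the labelled genotypes.

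Of the 8 genes, 7 have no exon base opposite another gene. The LIN-9 type gene aly (FBgn0004372, chromosome 3L, 3024129 to 3026521, minus strand, build BDGP6) has 2267 exon bases. The gene comr (FBgn0034667, 2R, 21864870 to 21866859, minus strand) is a single exon block of 1990 bases. The zinc finger gene topi (FBgn0037751, 3R, 9775121 to 9777943, plus strand) has 2652 exon bases, and kmg (FBgn0032473, 2L, 13160527 to 13163153, plus strand) has 2364. The small gene wuc (FBgn0033770, 2R, 12700081 to 12700851, plus strand) has 715. The homeodomain genes vis (FBgn0033748, 2R, 12507896 to 12510615) and achi (FBgn0033749, 2R, 12511534 to 12515062) lie on the minus strand next to each other, 918 bases apart. They are closely similar duplicates, so the split of reads between them is uncertain. The exception is tomb (FBgn0031715, 2L, 5535861 to 5536758, minus strand), of whose 836 exon bases 98, or 11.7%, lie opposite Cap-D3, a condensin gene. Over the 3 libraries of a group, Cap-D3 had 321 counts in control testes and 109 in control ovaries, where tomb had 177 and 35.

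The first comparison asked how the members differ between testis and ovary. All 8 were higher in every testis library than in every ovary library, in control and in mutant flies alike. In the control flies 50% of the tested genes separated the tissues in this direction, and in the mutant flies 41.9%. The members fell into a group with no ovary counts at all (aly, comr and wuc), a group with few (topi, vis, kmg and achi) and tomb, which had counts in every ovary library.

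**Figure D1:**
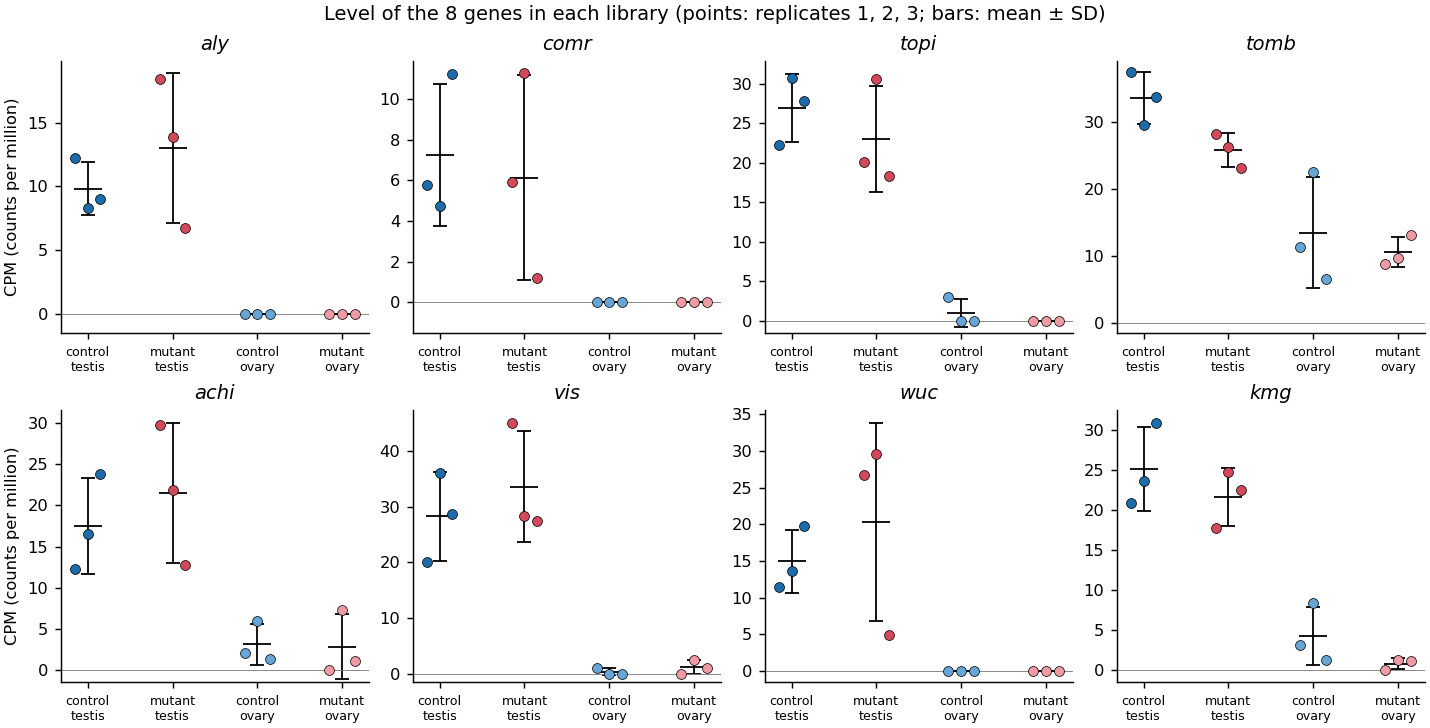
CPM of each gene (vertical axis, linear, scaled per panel) in the 12 libraries, grouped by genotype and tissue, with points for replicates 1, 2 and 3 from left to right and bars for mean ± SD. The testis libraries lie above the ovary libraries in all 8 panels, and mutant testis replicate 3 is the lowest mutant testis point in every panel but that of kmg.

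The gene aly had 12.2, 8.27 and 8.97 CPM in control testis libraries 1, 2 and 3 and 18.4, 13.9 and 6.70 CPM in the mutant testis libraries. It had 0 counts in all 6 ovary libraries. Set against a floor of 3 counts over an ovary group, its testis level was at least 8.27-fold higher in controls and at least 16.2-fold higher in mutants (edgeR adjusted p = 0.00108 and 2.92e-04). The floor allows for counting error in the ovary alone, and the testis count is taken without its own error. Intervals here cover counting error only.

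The gene comr was the lowest of the members, with 5.75, 4.73 and 11.2 CPM in control and 5.90, 11.3 and 1.22 CPM in mutant testes. It too had 0 counts in all ovary libraries, which gives at least 6.65-fold in controls and at least 7.96-fold in mutants. Its counts were too low for the filter of the model over all 12 libraries, so comr has no adjusted p there. In the fit without that filter 7 of the 8 members were called in each genotype, all but tomb. The share of all genes called in that fit is not given here. With the filter, 42.7% of all genes were called higher in control testes and 41.2% in mutant testes.

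The LIN-52 type gene wuc had 11.5, 13.6 and 19.7 CPM in control and 26.7, 29.5 and 4.87 CPM in mutant testes. No count fell on wuc in any ovary library, a difference of at least 13.5-fold in controls and at least 26.4-fold in mutants (edgeR adjusted p = 6.13e-04 and 1.71e-04). The mutant testis libraries of wuc had the largest SD of the members (13.5 CPM, n = 3), with replicate 3 below all 3 controls and replicates 1 and 2 above all 3.

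For topi, the control testis libraries had 22.3, 30.7 and 27.8 CPM and the mutant ones 20.1, 30.6 and 18.3 CPM. Its only ovary counts were 3 in control replicate 1. The ratio of testis to ovary was 23.5 in controls (95% counting interval 7.89 to 115; edgeR adjusted p = 3.25e-04) and at least 27.4-fold in mutants (edgeR adjusted p = 3.27e-05).

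The homeodomain gene vis had 20.1, 36.1 and 28.7 CPM in control and 45.1, 28.4 and 27.4 CPM in mutant testes. In ovaries 1 control count and 5 mutant counts were found, and 4 of the mutant counts were in replicate 2, which stands apart. The ratios were 74.4 (interval 13.2 to 2959) in controls and 24.2 (10.2 to 75.1) in mutants (edgeR adjusted p = 2.93e-05 and 3.21e-05). Its neighbour achi had 12.2, 16.5 and 23.8 CPM in control and 29.9, 21.9 and 12.8 CPM in mutant testes. Ovary levels of achi were 2.06, 5.94 and 1.29 CPM in control and 0, 7.28 and 1.10 CPM in mutant libraries. The log2 difference between testis and ovary of achi was 2.34 (SE 0.81, edgeR adjusted p = 0.0170) in controls and 2.85 (SE 0.78, edgeR adjusted p = 0.00369) in mutants. The control call for achi ended without control testis replicate 3, control ovary replicate 1 or control ovary replicate 3, with edgeR adjusted p = 0.0579, 0.0670 and 0.0641. Of the 13 mutant ovary counts of achi, 12 were in replicate 2, which stands apart, and without it the mutant difference was 4.79 (edgeR adjusted p = 2.61e-04).

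The zinc finger gene kmg had 20.9, 23.6 and 31.0 CPM in control and 17.7, 24.8 and 22.5 CPM in mutant testes. In ovaries it had 3.09, 8.32 and 1.29 CPM in control and 0, 1.21 and 1.10 CPM in mutant libraries. Testis exceeded ovary by 2.41 on the log2 scale in controls (SE 0.68, edgeR adjusted p = 0.00486). In mutants, with 3 ovary counts in all, the ratio was 24.8 (interval 8.34 to 122; edgeR adjusted p = 1.06e-04).

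The CXC gene tomb was the least restricted. It had 37.4, 29.6 and 33.7 CPM in control and 28.1, 26.3 and 23.1 CPM in mutant testes, and 11.3, 22.6 and 6.47 CPM in control and 8.80, 9.71 and 13.1 CPM in mutant ovaries. The highest ovary library, at 22.6 CPM, reached just under the lowest mutant testis library, at 23.1 CPM. The log2 difference was 1.18 (SE 0.56, edgeR adjusted p = 0.0706) in controls and 1.15 (SE 0.56, edgeR adjusted p = 0.0804) in mutants, and neither passed. Without control ovary replicate 2 the control difference was 1.88 (edgeR adjusted p = 0.0183), and without mutant ovary replicate 2 it was 1.21 (0.0236). Without mutant ovary replicate 3 the mutant difference was 1.52 (0.0460).

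**Figure D2:**
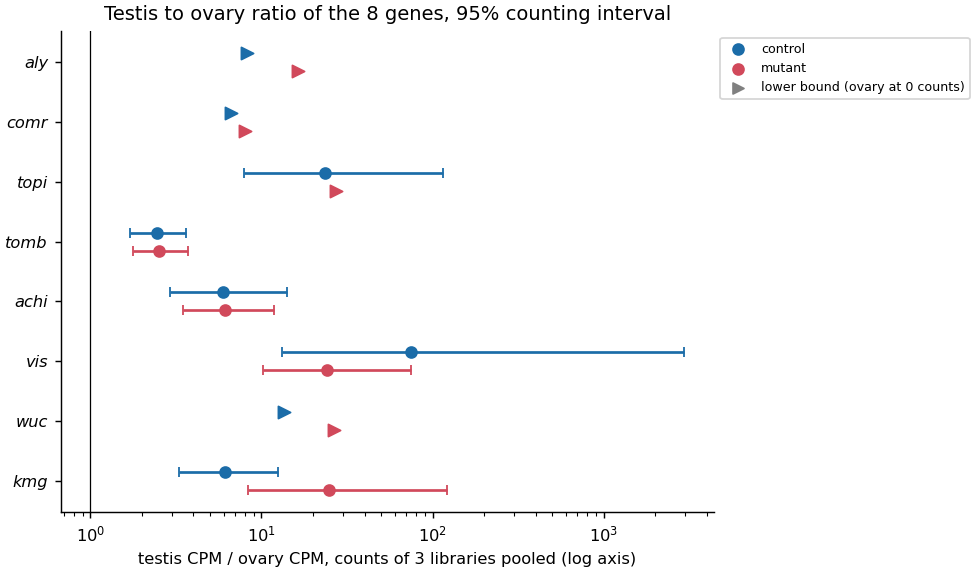
Ratio of testis to ovary CPM of each gene (horizontal log axis), with the counts of the 3 libraries of a group pooled, for control and mutant flies. Circles carry 95% counting intervals and triangles are lower bounds against a floor of 3 ovary counts; every point lies to the right of 1, and tomb is nearest to it at 2.46 in control and 2.53 in mutant flies.

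In the model over all genes, 6 of the 7 members that passed its filter on low counts were higher in testis and 0 were lower, in controls and in mutants. Over all genes 42.7% were called higher in control testes and 41.2% in mutant testes (10321 tested, adjusted p under 0.05). The median log2 difference over all tested genes was 1.09 in controls and 0.82 in mutants, and it was 1.45 and 1.19 with RLE size factors. With ovary groups at 0 set to their floor, the median log2 ratio over the 8 members was at least 2.89 in controls and at least 4.31 in mutants. Both bounds are relative to library totals and depend on the floor of 3 counts. The medians over all genes come from TMM or RLE scaled fits of genes past the filter, so they are not on the same scale as these bounds. In such bulk samples fewer cells of a type and less RNA per cell cannot be told apart.

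Levels of different members were compared per kilobase of exon. In control testes tomb was highest at 40.1 ± 4.69 CPM per kb (SD, n = 3), above every other member without overlap. Next came wuc at 20.9 ± 5.99, vis at 12.8 ± 3.60, kmg at 10.6 ± 2.21, topi at 10.2 ± 1.62, achi at 6.83 ± 2.28, aly at 4.33 ± 0.930 and comr at 3.63 ± 1.75 CPM per kb (SD, n = 3 each). From wuc to comr each gene overlapped the next in this order. The order was the same in mutant testes, where tomb (30.9 ± 3.01) and wuc (28.5 ± 18.9 CPM per kb, SD, n = 3 each) overlapped.

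Several tMAC subunits have a paralog in the somatic complex, and those paralogs were read in the same libraries. Here mip130 is the general counterpart of aly, mip120 that of tomb and lin-52 that of wuc. In ovaries, mip130 had 37.1 to 40.1 CPM per kb in control and 27.4 to 33.6 in mutant libraries, where aly was at 0. In testes, mip130 had 3.93 to 7.13 CPM per kb in control and 3.71 to 5.48 in mutant libraries, close to the levels of aly. Of the length-scaled counts of that pair, aly held 44.0% ± 7.18 in control and 53.5% ± 14.7 in mutant testes (SD, n = 3 each) and 0% in every ovary library. The log2 difference of mip130 between testis and ovary was -2.89 in controls (SE 0.44, edgeR adjusted p = 2.08e-05) and -2.92 in mutants (SE 0.44, edgeR adjusted p = 1.64e-05).

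The pair of wuc and lin-52 had the same arrangement. In ovaries lin-52 had 111 to 134 CPM per kb in control and 57.1 to 118 in mutant libraries, with wuc at 0. In testes lin-52 had 1.06 to 13.9 CPM per kb in control and 6.27 to 9.45 in mutant libraries, and wuc held 75.1% ± 18.1 and 72.2% ± 17.6 of the pair's length-scaled counts (SD, n = 3 each). The log2 difference of lin-52 was -4.00 in controls (SE 0.65, edgeR adjusted p = 3.93e-05) and -3.79 in mutants (SE 0.64, edgeR adjusted p = 5.32e-05). Of the lin-52 exon bases 47.9% lie opposite CG15772, and of those of mip130 5.3% lie opposite other genes, and the part of the opposite genes in these counts was not tested.

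The third pair did not divide between the tissues in this way. The gene mip120 had 3.79 to 5.13 CPM per kb in testis and 1.53 to 9.48 in ovary libraries. Of the pair's length-scaled counts, tomb held 86.7% to 90.3% in the testis libraries, against 55.1% to 91.1% in those from ovaries. Both the mip120 level of 9.48 and the tomb share of 55.1% were in mutant ovary replicate 2. The subunits that tMAC shares with the somatic complex were read as well. The gene mip40 had 27.0 to 43.1 CPM per kb in testis libraries and 0 to 7.55 in 5 of the 6 ovary libraries, with 28.3 in mutant ovary replicate 2. Its log2 difference was 2.91 in controls (SE 0.85, edgeR adjusted p = 0.00619) and 1.80 in mutants (SE 0.75, edgeR adjusted p = 0.0439), and the mutant call ended in 9 of 18 alternatives, where the adjusted p reached 0.177. Of the 56 mutant ovary counts of mip40, 51 were in replicate 2, and without that library the mutant difference was 3.47 (edgeR adjusted p = 3.65e-04). The histone-binding subunit gene Caf1-55 had 8.26 to 18.5 CPM per kb in testis and 9.10 to 44.5 in ovary libraries. Its value of 44.5 was in mutant ovary replicate 2, against 9.63 and 10.2 in the other mutant ovary libraries.

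**Figure D3:**
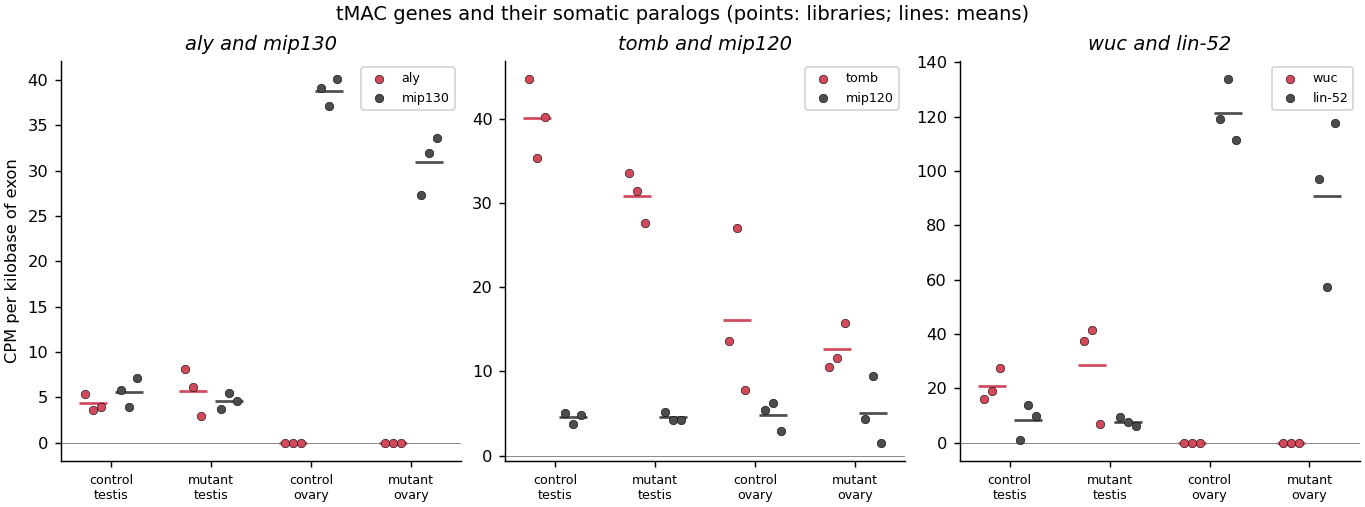
CPM per kilobase of exon (vertical axis, linear, scaled per panel) of aly and mip130, tomb and mip120, and wuc and lin-52 in the 12 libraries, with points for libraries and lines for group means. In ovaries aly and wuc are at 0 while mip130 and lin-52 are at their highest, and tomb lies above mip120 in each group mean.

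Of the 8 genes listed for the somatic dREAM complex, 3 were called lower in testis (mip130, lin-52 and the retinoblastoma family gene Rbf2) and 0 higher in both genotypes, where 20.2% of all genes were called lower in control and 21.9% in mutant testes. All 3 of the listed testis bromodomain genes, tBRD-1, tBRD-2 and tBRD-3, were called higher in testis in both genotypes. Of the 5 genes for testis forms of TFIID subunits (tTAFs: can, mia, sa, nht and rye), 3 were called higher in control testes and 5 in mutant testes, against the 42.7% and 41.2% of all genes given above. The calls added in mutants were mia (edgeR adjusted p = 0.0498) and sa (0.0493), both just under the threshold. For the partner of Kumgang, Mi-2, the log2 difference was -1.27 in controls (SE 0.55, edgeR adjusted p = 0.0494) and -1.79 in mutants (SE 0.55, edgeR adjusted p = 0.00814). The control call for Mi-2 ended in 11 of 17 alternatives, where the adjusted p reached 0.173. Of the Mi-2 exon bases 2.4% lie opposite an antisense RNA gene. That gene had 1157 counts in control and 1281 in mutant ovaries, against 209 and 157 in testes. Its part in the counts of Mi-2 was not tested. The mutant value of Mi-2 was -0.68 (edgeR adjusted p = 0.166) without mutant ovary replicate 2. That library had 308 CPM of Mi-2 against 34.1 and 48.2 CPM in the other mutant ovary libraries. The gene dany, which encodes another nuclear protein of spermatocytes, had 0 counts in all ovary libraries and 0 to 7.66 CPM in testis libraries.

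The comparison of mutant with control testes asked whether the members depend on Tdrd5l. All 8 passed the filter on low counts, and 0 were called (edgeR's quasi-likelihood test), where 0.942% of the 9768 tested genes were called. None of the 8 had an unadjusted p under 0.05, and DESeq2 called 0 as well. The log2 fold changes lay between -0.38 and 0.41, with 4 above 0 and 4 below and a median of 0.02, against 0.03 over all tested genes. The standard errors of the members were 0.36 to 0.65, so changes of that size were not detectable with these libraries.

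The gene with the highest value was wuc (log2 fold change 0.41, SE 0.46, edgeR adjusted p = 0.912), followed by aly (0.40, SE 0.49, 0.925), achi (0.28, SE 0.41, 0.938) and vis (0.26, SE 0.37, 0.938). Below 0 were kmg (-0.22, SE 0.38, 0.954), topi (-0.24, SE 0.37, 0.949), comr (-0.27, SE 0.65, 0.971) and tomb (-0.38, SE 0.36, 0.895). Only tomb separated the genotypes without overlap, at 29.6 to 37.4 CPM in control and 23.1 to 28.1 CPM in mutant libraries. Over all tested genes 7.41% separated in this direction and 11.8% in either.

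Replicate 3 was the lowest of the mutant testis libraries for 7 of the 8 members, the exception being kmg, and it was lowest for all 8 listed transcripts that are known to need aly. Against its 2 companions, wuc stood at 4.87 against 26.7 and 29.5 CPM in it, and comr at 1.22 against 5.90 and 11.3 CPM. Without that library the log2 fold change of wuc was 0.78 (edgeR adjusted p = 0.219), that of aly 0.62 (0.470) and that of comr 0.10 (0.945), and 0 of the 8 members were called, in a fit that called 725 genes. That library also had the lowest summed CPM of testis germ cell markers, 4111 against 4237 to 8981 in the other testis libraries, and the lowest share of counts in genes without an opposite exon. The part of either in these values was not tested. With the share as a term of the model, a choice made after the data were seen, the values were -0.17 for wuc (edgeR adjusted p = 0.920), 0.28 for aly (0.879) and -1.03 for comr (0.587), on the log2 scale.

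**Figure D4:**
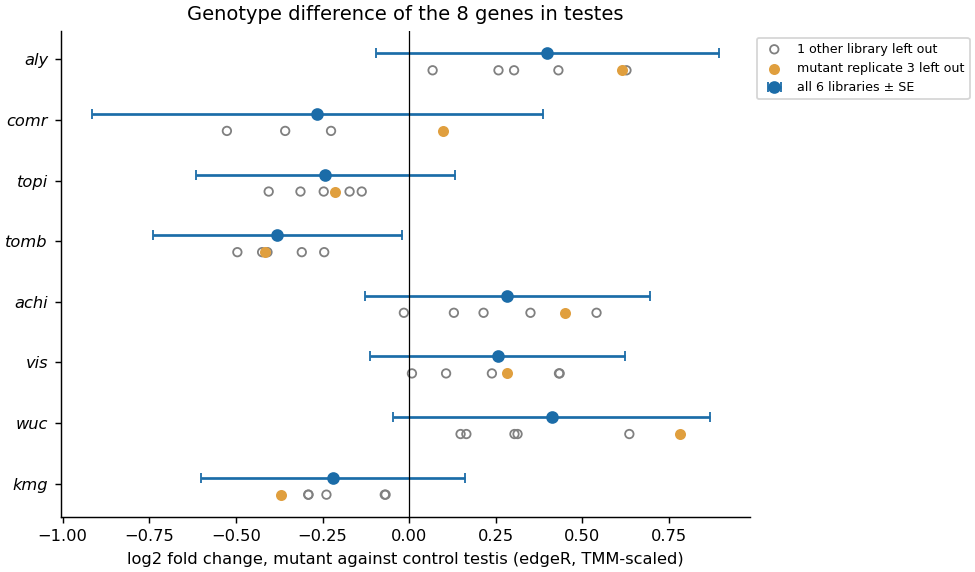
log2 fold change of each gene between mutant and control testes (horizontal axis, edgeR with TMM scaling). Filled blue points with bars are the values ± SE over all 6 libraries, open circles the values with 1 other library left out and orange points those without mutant testis replicate 3; the bars of 7 genes span 0, that of tomb ends just below 0, and no gene was called.

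Genes that act beside or below the complex were read from the same fit. The 7 tested of 8 transcripts known to need aly (CycB, twe, bol, fzo, Mst87F, dj, gdl and janB, with gdl below the filter) all had log2 fold changes above 0, from 0.07 to 0.70 with a median of 0.34, and 0 were called. The sperm tail gene Mst87F had 1519, 1563 and 2053 CPM in control and 3094, 3777 and 1685 CPM in mutant testes (log2 0.70, SE 0.35, edgeR adjusted p = 0.681). It passed without mutant replicate 3, at 0.89 (edgeR adjusted p = 0.0186), and with the share as a term, at 0.54 (0.00992). Of the 5 tTAF genes 4 were above 0 (median 0.39) and 0 were called, with 0.75 for can (SE 0.46, edgeR adjusted p = 0.786) and 0.74 for sa (SE 0.45, 0.778). The 7 tested somatic dREAM genes had a median of -0.07, with 1 above 0 and 6 below, and 0 were called.

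In ovaries the comparison of mutant with control could be fitted for tomb alone, since the other 7 members did not pass the filter on low counts. The log2 fold change of tomb was -0.22 (SE 0.61, edgeR adjusted p = 0.999), in a fit that called 0 of 4683 tested genes (0%), 184 of them with an unadjusted p under 0.05, while DESeq2 called 14. Without mutant ovary replicate 2, which stands apart, that fit called 55 genes and not tomb. Of the members below the filter, aly, comr and wuc had 0 counts in both genotypes, which allows up to 1.16 CPM over the control libraries and 0.865 CPM over the mutant libraries at 3 counts. For kmg, the 11 control counts and 3 mutant counts gave 4.24 ± 3.65 and 0.770 ± 0.669 CPM (SD, n = 3 each), and all 3 control libraries lay above all 3 mutant libraries. Among the tested genes, which do not include kmg, 10.7% separated in this direction. The separation of kmg rests on 1 count in control replicate 3 (1.29 CPM) against 2 counts in mutant replicate 2 (1.21 CPM), and 7 of the 11 control counts were in replicate 2. An exact two-sided permutation test of kmg gave p = 0.1, the smallest that 3 against 3 libraries allow, and 0.4 adjusted over the 4 members tested in this way. The groups of achi, vis and topi overlapped (exact two-sided permutation p = 0.9, 0.4 and 1).

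The difference of the genotype effect between the tissues was tested directly as an interaction. It could not be estimated for aly and wuc, which had 0 counts in every ovary library, and comr was below the filter. Of the other 5 members 0 were called and 0 had an unadjusted p under 0.05, and DESeq2 called 0, where 0.0291% of the 10321 tested genes were called. The lowest unadjusted values among them were 0.0563 for topi and 0.0619 for kmg (edgeR adjusted p = 0.961 and 0.973). For topi the ovary side rests on 3 control counts against 0 mutant counts, so its size is poorly determined.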

How the data were processed

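RNA was sequenced from 12 gonad libraries, and 200 ng of RNA went into each TruSeq RNA Library Prep (v2) library, per the labels' protocols. The deposited values are raw counts per gene, in a separate file for each library. The tools named are FastQC, TopHat2 2.1.1, HTSeq 0.9.1 and DESeq, with build BDGP6, per the submitters' processing notes. The HTSeq summary lines, 95.82% to 98.18% of records, were left out. Positions came from Ensembl release 115 of BDGP6.54, which holds 17252 of the 17558 features. All genes were fitted with edgeR 4.0.16 (filterByExpr minimum count 10, TMM factors, its quasi-likelihood test with robust fitting, p adjusted by Benjamini-Hochberg and called under 0.05), within each tissue for genotype and over all 12 libraries for tissue and interaction. DESeq2 1.42.0, other scalings, no filter, a replicate block and leaving out each library were alternatives, and the script was tested on simulated data. Each SE is the absolute log2 fold change divided by the square root of the F statistic of the quasi-likelihood test. Levels are CPM of library totals. Replicates differed by more than counting error (chi-square over its degrees of freedom, 4.31 to 50.6), and the labels do not say which animals a replicate holds. The members and lists were chosen with earlier results of these data known. Named genes are the 8 members, genes of the lists, Tdrd5l, features opposite a member, and the 5 genes most alike over the libraries; asRNA:CR45601 and CG15772, opposite Yp1 and lin-52, were named outside this rule after their values were seen. Lists were the tMAC members, shared subunits, somatic dREAM, Kumgang partners, tTAFs, testis bromodomain genes, transcripts that need aly, the spermatogonial switch and cell type markers. The marker vas was not used here.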

Additional observations from a re-analysis of the deposited data

How the results depend on the processing

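The counts of members called kept their side under all alternatives run. They stayed at 0 for the genotype comparisons and the interaction, and at 4 to 8 in control and 5 to 8 in mutant flies for tissue. In the main fit 42.7% of all genes were called higher in control testes and 41.2% in mutant testes. The lowest count of members called, 4, came from a fit of genes without an opposite exon alone, chosen after the data were seen. In that fit achi (edgeR adjusted p = 0.0902) and kmg (0.0504) lost their control call. Directions reversed in 4 cases, none of them a called value. With 1 library left out, the log2 fold change in testes ran from -0.53 to 0.10 for comr (0.10 without mutant replicate 3) and from -0.015 to 0.54 for achi (-0.015 without mutant replicate 1), and that of tomb in ovaries from -0.57 to 0.42 (0.42 without control replicate 2). For wuc in testes it was -0.17 with the share of counts in genes without an opposite exon as a term. The causes were not tested. The tissue difference of tomb passed with RLE size factors, library size alone and DESeq2 in both genotypes. Replicate numbers gave no sign of pairing: same-numbered libraries correlated at -0.336 to 0.011 in testis and -0.562 to 0.297 in ovary. With the replicate block 0 members were called in testis, in ovary and in the interaction. Over all genes the 92 testis calls became 58 with library size alone, 9 in the model of all 12 libraries, 28 with only genes without an opposite exon, 177 with the share as a term and 49 to 725 with 1 library left out. In ovary the 0 calls became 7 without the filter, 14 with DESeq2, 5 in the model of all 12 libraries, 92 with the share as a term and up to 55 with 1 library left out. The 3 interaction calls became 13 with DESeq2 and 1 to 6 otherwise. For members at 0 counts in ovary the depth allows lower bounds on the tissue ratio and no more.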

Other observations

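The genes whose levels followed the mean profile of the 7 members in the fit over all 12 libraries most closely were CG31805 (Pearson r = 0.996), CG12992 (0.995), CG15625 (0.995), CG33293 (0.994) and the feature FBgn0038052 (0.994). All libraries of a tissue share their RNA selection, and 1997 of 10314 genes had r above 0.95, so many genes share this likeness. Of the members, tomb followed that profile least, at 0.823.

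Genes of the spermatogonial switch, which act before the spermatocyte stage, were scarce as well. The summed level of bam, bgcn and tut was 30.9 to 55.6 CPM in control and 35.3 to 60.9 CPM in mutant testes and 0 to 10.3 CPM in ovary libraries. Most of it was bgcn, with 28.0, 46.7 and 44.0 CPM in control and 33.3, 48.9 and 29.2 CPM in mutant testes. With the counts of each group pooled, bam had 2.45 CPM in control testes and 4.64 CPM in control ovaries. In mutants bam had 4.27 CPM in testes and 2.88 CPM in ovaries, and its tissues overlapped in both genotypes.

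The summed marker levels of other cells overlapped between the genotypes in the testis libraries. The fat body marker apolpp alone did not, at 57.1 ± 3.87 CPM in control and 71.4 ± 5.72 CPM in mutant libraries (SD, n = 3 each). Over all tested genes 11.8% separated in either direction. The fat body marker Lsp2 overlapped and went the other way, at 41.5 ± 4.48 and 35.0 ± 10.2 CPM (SD, n = 3 each). Of the Lsp2 exon bases 84.6% lie opposite an antisense RNA gene. Accessory gland markers (Acp26Aa, Acp36DE and SP) summed to 64.0 to 201 CPM in control and 80.4 to 310 CPM in mutant testes, somatic cyst cell markers (tj, zfh1 and eya) to 26.6 to 51.4 and 35.9 to 89.0 CPM, fat body markers (Fbp1, Lsp2 and apolpp) to 89.7 to 105 and 89.2 to 119 CPM, and muscle markers (Mhc, Act57B and Mlp60A) to 103 to 134 and 69.1 to 147 CPM. In ovaries the muscle markers were at 1902 CPM in mutant replicate 2 and at 131 to 1111 CPM in the other libraries. Early germ cell markers (nanos and bam) were at 982 to 1112 CPM in control and 533 to 984 CPM in mutant testes.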
